A study of Mus musculus with 16 samples.

Results

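The genes described here encode the proteins of the cytosolic ribosome in mouse. They were chosen by name, as every gene whose symbol is Rpl or Rps with a number (and at most a final a, x or l), together with Rplp0, Rplp1, Rplp2 and Rpsa, and 79 of the 18657 genes in the data met that rule. Of the 79 genes, 47 belong to the large subunit (Rpl and Rplp) and 32 to the small subunit (Rps and Rpsa), and all 79 were listed in both tissues. The mice were male C57BL/6 animals of 10 weeks, housed at room temperature. One group was homozygous for an allele labelled uORF-TAA and the other consisted of wild-type littermates; the allele lies in Ppargc1a, which encodes the transcriptional coactivator PGC-1alpha, and a uORF is a short upstream open reading frame. mRNA of brown adipose tissue and of quadriceps muscle was sequenced from 4 libraries per genotype in each tissue, 16 in all. Whether 1 mouse gave both tissues is not stated in the labels, and no further allele is named there. Values per library were not analysed here, so each level is the authors' mean over the 8 libraries of a tissue, both genotypes together, and the error of a genotype difference is the deposited standard error.

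The cytosolic ribosome translates the mRNAs of the nuclear genome. Its small subunit reads the codons of the mRNA, and its large subunit joins amino acids and releases the chain through an exit tunnel. Cells make the ribosomal proteins in near equal numbers, and most of their mRNAs begin with a run of pyrimidines, the terminal oligopyrimidine (TOP) motif, through which mTORC1 signalling controls their translation. Skeletal muscle is known for a copy of its own of one large subunit protein: RPL3L is found in heart and skeletal muscle, where it takes the place of RPL3 in part of the ribosomes. PGC-1alpha is known as a driver of mitochondrial genes, whose own ribosomes are built from a different set of proteins.

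The starts of several of these genes are shown because the TOP motif is the sequence feature that most of the family shares, and because the copies named below differ in it. RefSeq promoter windows (build GRCm38.p6) were at hand for 58 of the 79 genes, in 70 windows. Each line below gives 15 bases before the annotated transcription start and 15 bases from the start onwards, 5′ to 3′ on the gene's own strand, and capitals mark runs of at least 5 C or T. Rpl7a (chr2:26910792-26910821, plus strand), Rps6 (chr4:86857353-86857382, minus), Rplp2 (chr7:141447636-141447665, plus) and Rpl4 (chr9:64173372-64173401, plus) stand for common members. Rps27 (chr3:90213634-90213663, minus), Rps27l (chr9:66946071-66946100, plus), Rpl39 (chrX:37085208-37085237, minus), Rpl39l (chr16:10170213-10170242, plus), Rps4x (chrX:102189377-102189406, minus) and the upstream start of Rpl3l (chr17:24727811-24727840, plus) belong to pairs of copies.
Rpl7a: aTTCCCTCTTCTTTCTTTCTCCagcagccg
Rps6: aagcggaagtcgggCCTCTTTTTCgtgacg
Rplp2: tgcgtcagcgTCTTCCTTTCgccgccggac
Rpl4: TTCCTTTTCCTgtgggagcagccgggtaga
Rps27: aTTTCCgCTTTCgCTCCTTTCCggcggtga
Rps27l: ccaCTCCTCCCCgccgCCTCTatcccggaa
Rpl39: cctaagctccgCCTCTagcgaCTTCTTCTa
Rpl39l: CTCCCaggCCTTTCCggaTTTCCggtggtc
Rps4x: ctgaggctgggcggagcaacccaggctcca
Rpl3l: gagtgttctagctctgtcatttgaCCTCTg
In these letters Rpl7a, Rps6, Rplp2, Rps27 and Rpl39 have a pyrimidine run across the annotated start. Rpl4, Rps27l and Rpl39l have runs in the window but none across the start. Rps4x has no run, and Rpl3l has 1 short run behind its start. Over the 60 bases around the start, on the transcribed strand, a run of at least 8 C or T was present in 33 of the 58 genes (56.9%), against 25.8% of all 27025 genes of the table. The letters CTTTC were present in 21 of the 58 (36.2%), against 9.18% of all genes, and CTCTTT in 17.2%, against 2.68%. These motifs overlap one another and can lie within the runs, but not every match does. Rpsa had CTTTC without a run of at least 8 C or T. CCGGAAG, the core letters bound by ETS factors such as GABP, was present on either strand of the 300-base window in 24 of the 58 (41.4%), against 9.93% of all genes. A match describes the letters and does not show that a factor binds there.

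The levels covered a wide range, which was similar in both tissues. Levels between genes are given as length-scaled levels, meaning the mean normalized count per kilobase of transcript, brought to the same total over all genes in both tissues, as TPM values are. The median length-scaled level of the 79 genes was 409 in brown fat and 210 in quadriceps. The large subunit genes had a median of 378 in brown fat and 209 in quadriceps, and the small subunit genes 421 in brown fat and 212 in quadriceps. Across the 74 genes whose mean normalized count reached 50 in both tissues, the SD of the log2 length-scaled levels was 0.981 in brown fat and 0.901 in quadriceps, although the proteins themselves occur in the ribosome once each, apart from the stalk proteins. The order of the genes was shared between tissues, with a Spearman correlation of the length-scaled levels of 0.840 over the 79 genes, which come from the same library type, lengths and gene models in both tissues. No error over libraries can be given for a level, so neighbours in the order cannot be told apart.

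The highest length-scaled level in brown fat was that of Rplp2 at 1604, an acidic protein of the large subunit stalk that contacts elongation factors. Rps15, needed for export of the small subunit, followed at 1292, and then Rpl9 at 1076, the second stalk protein Rplp1 at 1026 and Rps14 at 975. In quadriceps the order began with Rpl4, a protein that lines the exit tunnel, at 787, which made it the gene of rank 115 among all genes. Rps15 at 539, Rpl3l at 536, Rpl22 at 466 and Rpl17 at 438 came next. Rps15 was thus near the top in both tissues, whereas Rplp2 had 268 in quadriceps and Rpl4 had 703 in brown fat. The stalk base protein Rplp0 had 520 in brown fat and 287 in quadriceps, Rplp1 had 407 in quadriceps, and the laminin receptor Rpsa, a small subunit protein, had 330 in brown fat and 128 in quadriceps.

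A few genes were listed at levels far below the rest, among them the copies Rpl39l, in both tissues, and Rps4l, in quadriceps, described further on. Rpl30 had a length-scaled level of 0.359 in brown fat and 0.136 in quadriceps, with a mean normalized count of 1.35 in brown fat and 0.662 in quadriceps. Rpl34 had 2.16 in brown fat and 1.54 in quadriceps, and Rps27 had 8.65 in brown fat and 2.70 in quadriceps. Each of these encodes a single-copy component of the ribosome, as does Rplp0. Many ribosomal protein genes have near-identical processed copies in the genome, so reads may be discarded or assigned to a copy, depending on the authors' counting, which is not given in the sources used here. In GENCODE M21 transcripts, a median of 48.0% of the 75-base stretches (the read length) of a ribosomal protein transcript also occurred in another gene, the range being 0 to 98.5%, and 35 of the 79 genes shared over 50%. Rps27 was the highest at 98.5%, shared with its retrogene Rps27rt among others, while Rpl30 shared 40.1% and Rpl34 41.4%. The Spearman correlation of sharing with the length-scaled level was -0.049 in brown fat and -0.188 in quadriceps over the 79 genes, and -0.105 in brown fat and -0.270 in quadriceps over the 74 genes whose mean reached 50 in both tissues. Scaling by unshared stretches instead of length changed the order of the levels, with a Spearman correlation to the length-scaled order of 0.670 in brown fat and 0.613 in quadriceps. The levels of genes with large shared parts are uncertain, and the part of sharing in the low levels of Rpl30, Rpl34 and Rps27 was not tested.

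**Figure D1:**
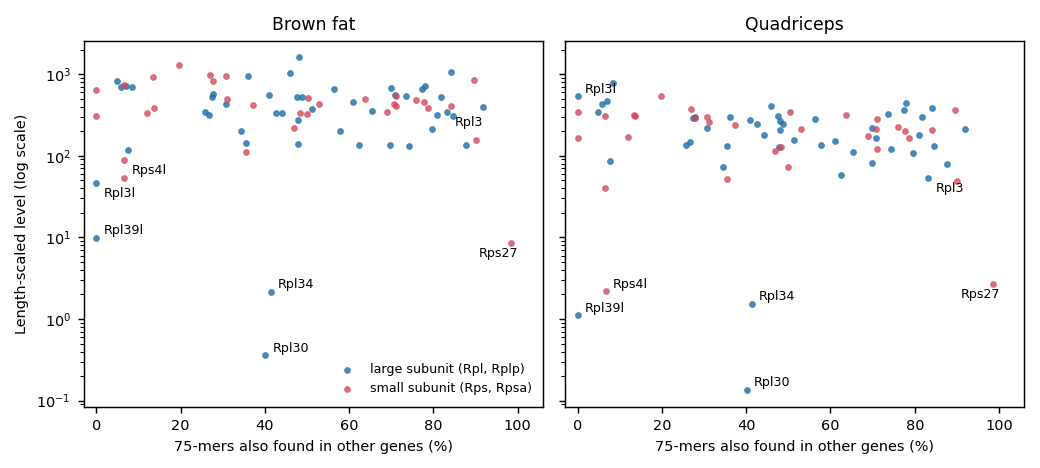
Length-scaled level of each of the 79 genes (log scale) against the percentage of its 75-base stretches that also occur in another gene, in brown fat (left) and quadriceps (right); each point is 1 gene, blue for the large and red for the small subunit. Rpl30, Rpl34, Rps27 and the copy Rpl39l lie far below the others in both tissues, joined by Rps4l in quadriceps, and Spearman's correlation with sharing is -0.049 in brown fat and -0.188 in quadriceps.

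Ribosomal protein mRNA made up a larger part of the mRNA of brown fat than of quadriceps. The 79 genes together held 1.39% of all normalized counts in brown fat and 0.585% in quadriceps. The large subunit genes held 0.828% in brown fat and 0.374% in quadriceps, and the small subunit genes 0.564% in brown fat and 0.211% in quadriceps. As CPM, the normalized counts per M (mega) of the tissue's summed counts, 78 of the 79 genes were higher in brown fat, against 74.6% of the 9282 genes of any kind whose mean reached 50 in both. The median difference, brown fat minus quadriceps, was 1.34 on the log2 scale (interquartile range 1.15 to 1.72), and all genes together were shifted in the same direction by a median of 0.909. A single gene, Myh4, held 10.2% of the quadriceps counts, whereas the highest gene of brown fat held 1.72%. Relative to the shift of all genes the median difference of the 79 genes was 0.43, and 69 of them lay above it. The tissues were normalized separately, so these level differences carry no test. In bulk tissue fewer cells of a type and less RNA per cell cannot be told apart.

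Both subunits shared this pattern. The small subunit genes had a median level difference of 1.46, with all 32 higher in brown fat and 31 above the shift of all genes. The large subunit genes had a median of 1.27, with 46 of 47 higher in brown fat and 38 above the shift. Mitochondrial ribosomal proteins, a separate family of 77 measured genes, had a median difference of 1.42, all 77 being higher in brown fat and 65 above the shift. The other parts of the translation machinery had smaller differences: the median was 0.67 for 14 elongation and termination factors, 0.53 for 36 initiation factors, 0.51 for 19 genes of the RNA polymerase I machinery and 0.21 for 45 ribosome biogenesis factors. Each of those medians lay below the shift of all genes. Ribosomal protein genes that the name rule leaves out, such as Fau and Rps3a1, had a median difference of 1.27 and all 8 were higher in brown fat.

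Among the genes with the largest level difference toward brown fat, Rplp2 had 348 CPM in brown fat and 46.1 in quadriceps, a log2 difference of 2.92. Its stalk partner Rplp1 had 264 CPM in brown fat and 82.8 in quadriceps, so the stalk genes differed among themselves. Rps19, whose loss of 1 allele causes Diamond-Blackfan anaemia in humans, had 105 CPM in brown fat and 18.8 in quadriceps, a difference of 2.49. The smallest differences toward brown fat were those of Rpl4 (557 CPM in brown fat and 494 in quadriceps), Rpl15 (54.2 in brown fat and 39.8 in quadriceps), Rpl5 (148 in brown fat and 108 in quadriceps) and Rpl35 (69.2 in brown fat and 50.3 in quadriceps). Rpl5 forms, with Rpl11 and a small ribosomal RNA, the particle that binds Mdm2. Relative to the shift of all genes, the differences of these 4 genes were -0.74 to -0.45 on the log2 scale.

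**Figure D2:**
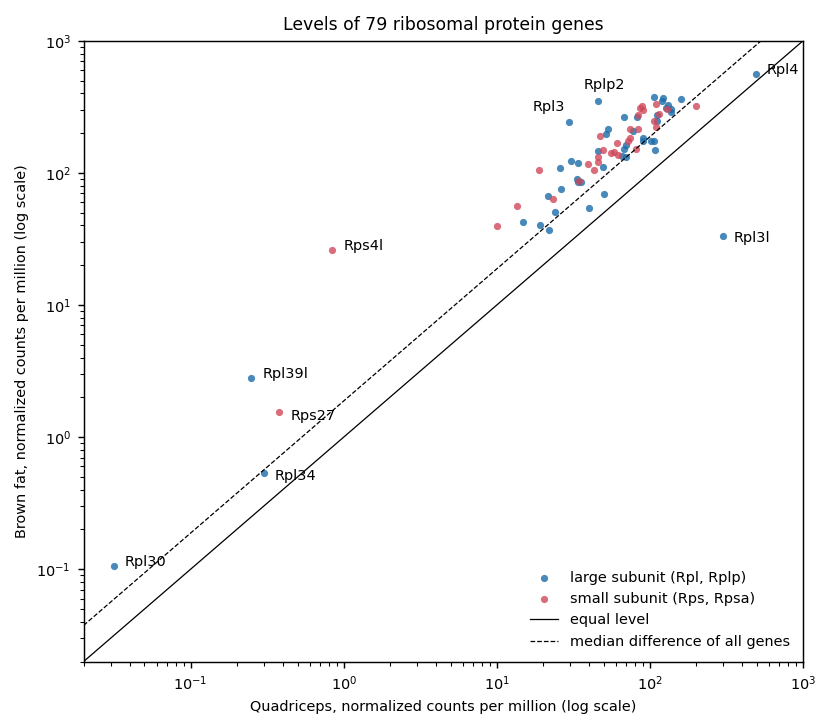
Mean normalized counts in CPM of each of the 79 genes in brown fat (vertical, log scale) against quadriceps (horizontal, log scale), blue for the large and red for the small subunit, with a solid line at equal level and a dashed line at the median difference of all genes. All points but Rpl3l lie above the solid line, and 69 lie above the dashed line.

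The copies of ribosomal protein genes differed in which tissue they marked. As CPM, Rpl3l was the only one of the 79 genes listed at a lower level in brown fat. It had 33.2 CPM in brown fat and 301 in quadriceps, a log2 difference of -3.18. By length-scaled level Rpl4 was lower in brown fat too, at 703 against 787 in quadriceps. Rpl3, the partner of Rpl3l, ran the other way, with 241 CPM in brown fat and 29.5 in quadriceps, a difference of 3.03. Per transcript length, Rpl3l made up 11.9% of the pair in brown fat and 90.9% of it in quadriceps, where its length-scaled level was 10.0 times that of Rpl3. Rpl3 shares 83.2% of its 75-base stretches with other genes and Rpl3l shares 0. Counted per unshared stretch instead, Rpl3l made up 2.21% of the pair in brown fat and 62.6% in quadriceps, so Rpl3l was the smaller part in brown fat and the larger part in quadriceps under both scalings.

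Rpl3l in brown fat stood beside muscle transcripts in the same libraries. The level of Rpl3l in brown fat was 11.0% of that in quadriceps, and the summed level of 8 muscle fibre genes was 4.29% of that in quadriceps (8705 and 2.027e+05 CPM). Over these 8 genes, all of them measured in both tissues and none listed at 0, the percentage ran from 1.81% for Ttn to 24.5% for Mb. The part of muscle fibres in the brown fat level of Rpl3l was not tested. Of the brown adipocyte genes, Ucp1 had 3709 CPM in brown fat and 0.318 in quadriceps.

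The sequence in front of each annotated start of Rpl3l is shown because Rpl3l is the member with the largest level difference toward quadriceps. RefSeq gives a pair of starts for it, and the 250 bases before each are printed 5′ to 3′ on the plus strand. In the window of the upstream start (chr17:24727576-24727825) capitals mark CAGCTG, letters bound by myogenic E-box factors such as MYOD; the word reads the same on both strands. In the window of the downstream start (chr17:24732435-24732684) capitals mark a match to the MEF2 consensus, searched on both strands. By its coordinates this window lies beyond the upstream start, and so within the gene rather than in front of it. The entry for Rpl3 was not among the windows.
Rpl3l upstream start: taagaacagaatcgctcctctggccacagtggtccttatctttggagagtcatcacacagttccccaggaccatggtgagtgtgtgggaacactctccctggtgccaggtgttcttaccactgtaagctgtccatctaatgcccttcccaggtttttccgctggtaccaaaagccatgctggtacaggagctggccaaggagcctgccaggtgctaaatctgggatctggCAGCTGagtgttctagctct
Rpl3l downstream start: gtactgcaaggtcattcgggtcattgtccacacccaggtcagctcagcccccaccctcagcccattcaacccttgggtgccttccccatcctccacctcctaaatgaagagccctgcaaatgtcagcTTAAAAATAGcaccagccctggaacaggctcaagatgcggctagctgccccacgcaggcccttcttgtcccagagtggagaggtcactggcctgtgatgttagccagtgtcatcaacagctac
In the 300-base windows, CAGCTG was present in 3 of the 58 genes (5.17%), namely Rpl35, Rpl3l and Rpl6, against 18.3% of all 27025 genes. The MEF2 consensus was present in Rpl3l alone among the 58 (1.72%), against 3.70% of all genes. Both matches are common letters in the genome and describe the window, not its use.

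The other pairs did not show such a turn between the tissues. Rpl39l, a copy of Rpl39 known in mouse from male germ cells, made up 7.76% of its pair per length in brown fat and 1.26% in quadriceps, at 2.81 CPM in brown fat and 0.249 in quadriceps. Rpl39 itself had 37.1 CPM in brown fat and 21.8 in quadriceps. Rps4l, which GENCODE M21 annotates as a transcribed processed pseudogene, had the largest level difference of all, with 26.2 CPM in brown fat and 0.843 in quadriceps, a log2 difference of 4.96. It made up 11.2% of the pair with the X-linked Rps4x per length in brown fat and 1.04% in quadriceps, and 6.01% in brown fat and 0.526% in quadriceps per unshared stretch. Rps27l, a copy of Rps27 induced by p53, made up 97.5% of its pair per length in brown fat and 98.4% in quadriceps. Rps27 has only 4 of its 75-base stretches to itself, and per unshared stretch Rps27l made up 37.5% in brown fat and 49.1% in quadriceps, so which of the pair is higher turned with the scaling.

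**Figure D3:**
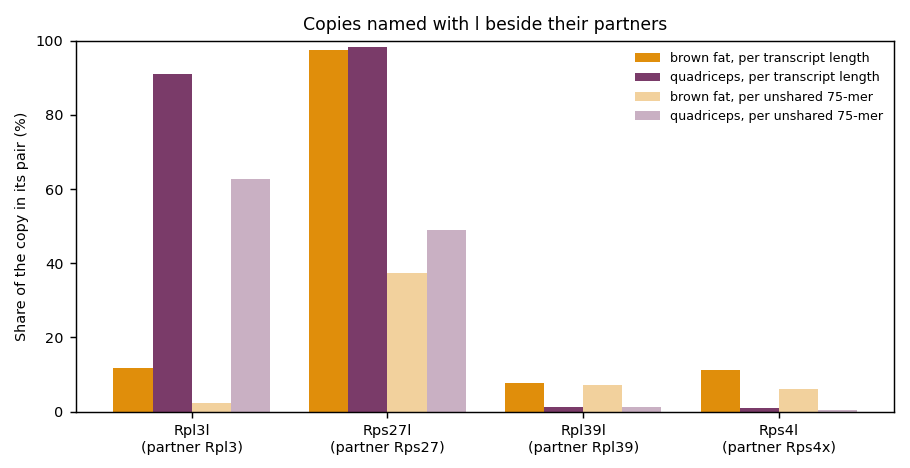
Share of each copy in the summed level of copy and partner (%), for 4 pairs, in brown fat (orange) and quadriceps (purple), scaled per transcript length (dark bars) or per 75-base stretch found in no other gene (pale bars). Per length, Rpl3l holds 11.9% of its pair in brown fat and 90.9% in quadriceps, and the bars of Rps27l, at 97.5% and 98.4% per length, lie at 37.5% and 49.1% with the other scaling.

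The genotype comparison asked whether the uORF-TAA allele moved the mRNA of these genes. None of them passed the test in either tissue. In brown fat the DESeq2 test of the authors' deposited table called 0 of 79 genes at an adjusted p of 0.05 (75 had an adjusted p), against 0.0863% of the 9272 genes with one. In quadriceps it called 0 of 79, against 0.0% of 17521 genes. At an unadjusted p under 0.05 the DESeq2 test gave 0 of 79 in brown fat, against 2.07% of all genes, and 0 of 79 in quadriceps, against 2.0%. For Ppargc1a, the targeted gene, the authors' deposited table gave 0.00 ± 0.11 in brown fat and 0.06 ± 0.13 in quadriceps (log2 fold change with SE). All fold changes place uORF-TAA over wild type, and this direction assumes that the genotype a table names first is its numerator. Errors are SE with n = 4 libraries per genotype, and low-count genes have small deposited errors, as in shrunken estimates.

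The median log2 fold change of the 79 genes was close to 0 in both tissues. It was -0.0095 in brown fat, where the median of all genes was 0.0015, and -0.0095 in quadriceps, where the median of all genes was 0.0024. The large subunit genes had a median of -0.0111 in brown fat and -0.0287 in quadriceps. The small subunit genes had -0.0053 in brown fat and 0.0041 in quadriceps. Below 0 were 50 of 79 in brown fat, against 48.8% of all genes, and 44 of 79 in quadriceps, against 48.3% of all genes. In the large subunit 29 of 47 were below 0 in each tissue, while in the small subunit 21 of 32 were below 0 in brown fat and 15 of 32 in quadriceps. The comparison depended on count level. With means under 500 left out, 45.5% of 66 members and 45.4% of all genes lay above 0 in quadriceps. In brown fat these shares were 38.9% of 72 members and 55.0% of all genes. Less the median of all genes at that level, the median of the 79 genes, at any count, was -0.0177 in brown fat and -0.0003 in quadriceps. With both sides at that level, the median was -0.0071 for 72 members and 0.0081 for all genes in brown fat. In quadriceps it was -0.0152 for 66 members and -0.0091 for all genes. With a table's numerator read the other way, 29 of 79 would lie below 0 in brown fat and 35 of 79 in quadriceps. The members share mice, libraries and normalization, so these counts are descriptions and carry no test.

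The precision of single genes sets how far these values reach. Among the 74 genes whose mean reached 50 in both tissues, the 95% interval reached 0.134 to 0.248 to either side of the log2 fold change in brown fat (median 0.204) and 0.152 to 0.264 in quadriceps (median 0.217). The outermost interval bounds were -0.306 and 0.272 in brown fat and -0.394 and 0.332 in quadriceps, on the scale of the authors' deposited table. The reach of an interval is not a limit of detection, because the adjusted test over all genes asks for more than an interval that leaves out 0. In quadriceps Hnrnpa1, outside the 79 genes, had -0.40 ± 0.09 (log2 fold change with SE). It was not called, with adjusted p = 0.133 in the authors' deposited DESeq2 table. The smallest difference that these libraries could have shown was not worked out. The fold changes themselves lay within 0.1 of 0 for 78 of the 79 genes in brown fat and for 69 of the 79 in quadriceps. The median size of the fold change over all genes was 0.0399 in brown fat and 0.0458 in quadriceps. Most genes of any kind thus lay within 0.1 of 0 too. If the deposited estimates are shrunken, these intervals and sizes describe shrunken values, and the intervals need not have their usual coverage.

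**Figure D4:**
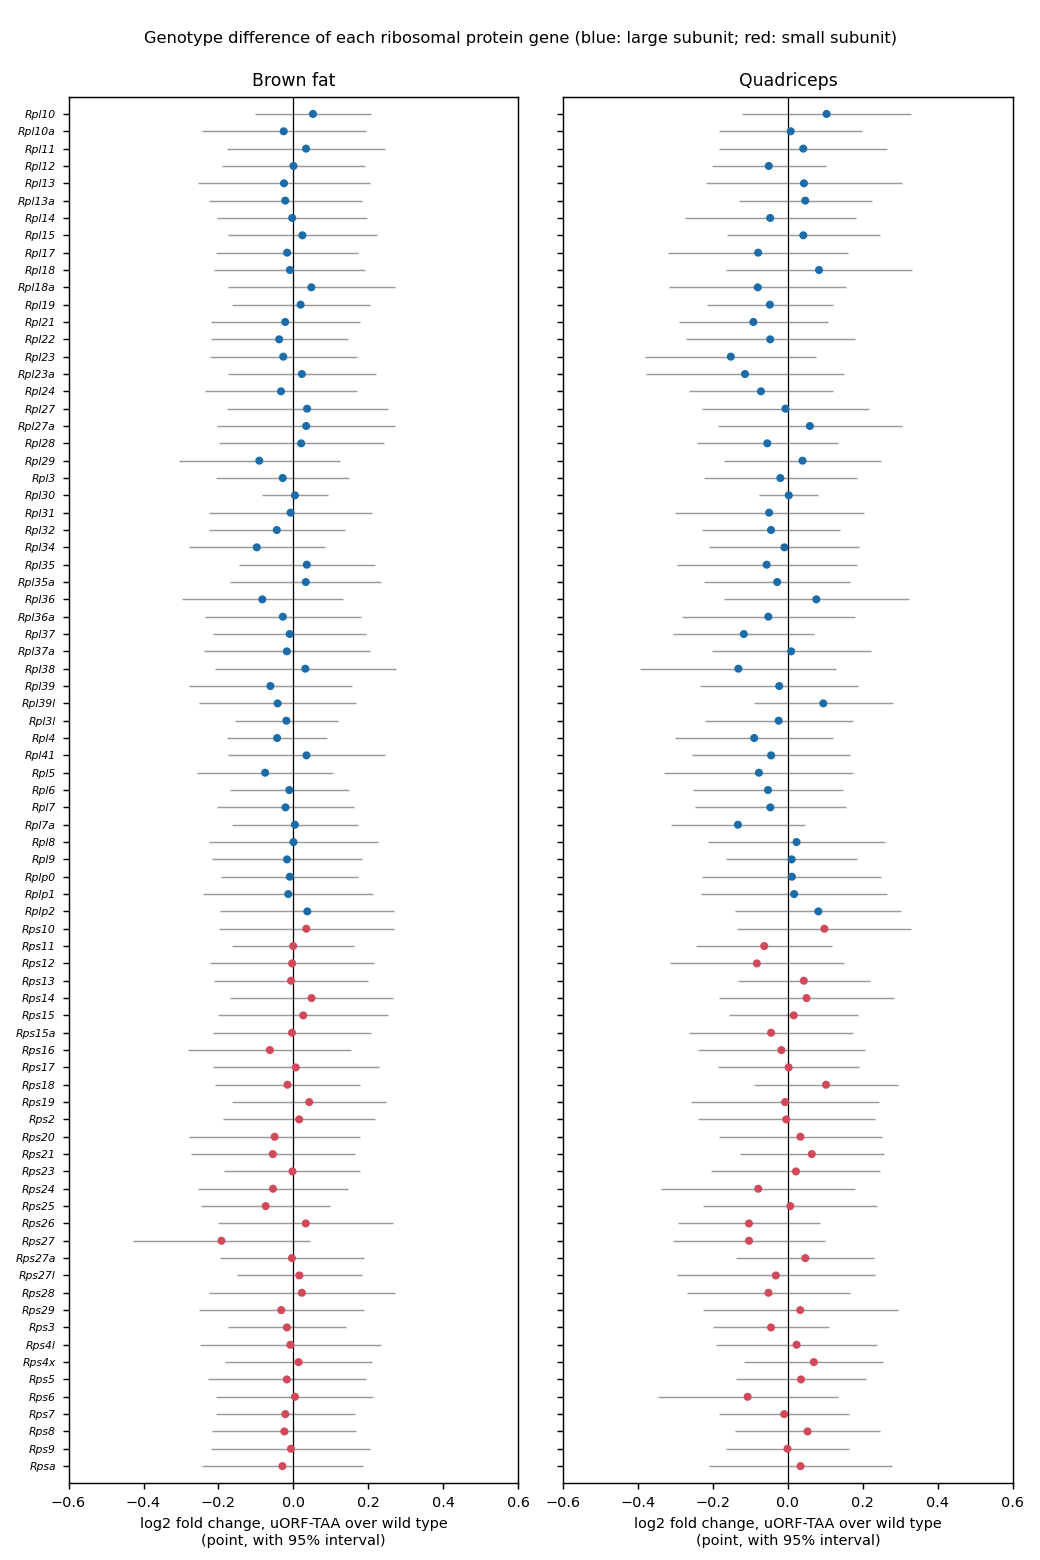
Log2 fold change of each of the 79 genes, uORF-TAA over wild type, with its 95% interval (horizontal bars), in brown fat (left) and quadriceps (right), blue for the large and red for the small subunit. Every interval crosses 0, and the points run from -0.192 to 0.052 in brown fat and from -0.152 to 0.103 in quadriceps.

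In brown fat the genes of smallest p are described by their values, since none passed the test. For Rps27, a zinc finger protein of the small subunit, the authors' deposited DESeq2 table gave -0.19 ± 0.12 (log2 fold change with SE) with p = 0.11 before adjustment, at a mean normalized count of 19.7. Rpl34 had -0.10 ± 0.09 (p = 0.29, mean 6.84) in the authors' deposited DESeq2 table. Both lie at low counts and have no deposited adjusted p in brown fat. The next genes had mean normalized counts of at least 500: Rps25, which internal ribosome entry sites need, had -0.07 ± 0.09, Rpl29 -0.09 ± 0.11, Rpl5 -0.08 ± 0.09 and Rpl36 -0.08 ± 0.11 in the authors' deposited table. On the other side Rpl10, added late in the maturation of the large subunit, had the highest fold change at 0.05 ± 0.08 in the authors' deposited table.

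In quadriceps the smallest p belonged to Rpl7a, for which the authors' deposited DESeq2 table gave -0.13 ± 0.09 (log2 fold change with SE), p = 0.144 and adjusted p = 1.00, at a mean of 2882. Rpl23, at the tunnel exit and a binder of Mdm2, had the lowest fold change at -0.15 ± 0.12 (p = 0.19) in the authors' deposited DESeq2 table. Rpl37 had -0.12 ± 0.10, Rpl38, whose loss changes the body plan of mice, -0.13 ± 0.13, and Rps26 -0.10 ± 0.10 in the authors' deposited table. Rps6, the substrate of the S6 kinases, had 0.00 ± 0.11 in brown fat and -0.11 ± 0.12 in quadriceps in the authors' deposited table. Rps18 had 0.10 ± 0.10 and Rpl10 0.10 ± 0.11 at the upper end in the authors' deposited table.

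The copies gave the same picture. In the authors' deposited table Rpl3l had -0.02 ± 0.07 in brown fat and -0.02 ± 0.10 in quadriceps (log2 fold change with SE), and Rpl3 had -0.03 ± 0.09 in brown fat and -0.02 ± 0.10 in quadriceps. The mean normalized count of Rpl3l in quadriceps was 6326, so its interval there, about as wide as those of the common members, was not set by low counts. Rps27l had 0.02 ± 0.09 in brown fat and -0.03 ± 0.13 in quadriceps, and Rps4l had -0.01 ± 0.12 in brown fat and 0.02 ± 0.11 in quadriceps in the authors' deposited table. The stalk genes Rplp0, Rplp1 and Rplp2 had -0.01, -0.01 and 0.04 in brown fat and 0.01, 0.02 and 0.08 in quadriceps, and Rpsa had -0.03 in brown fat and 0.03 in quadriceps, all in the authors' deposited table.

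The fold changes did not order the genes alike in the 2 tissues. The Spearman correlation of the log2 fold changes was 0.016 over the 79 genes, which share the library in which they were measured within a tissue. Of the 79 genes, 27 were below 0 in both tissues and 12 above 0 in both, while 23 were below 0 in brown fat and above it in quadriceps and 17 were the other way round. Such counts over all genes were not worked out, so these describe the 79 genes only. The test of the difference between tissues, with Benjamini-Hochberg adjustment over 16844 genes, called 0 of the 79, against 0.0% of all genes, and at an unadjusted p under 0.05 it gave 0 of 79, against 1.16%. The smallest unadjusted p was that of Rpl7a, at 0.272 for a difference of 0.14 ± 0.13 (brown fat minus quadriceps) computed from the authors' deposited DESeq2 tables. Both the sign counts and this ranking rest on the assumed numerators. With the brown fat table alone read the other way, 17 genes were below 0 in both tissues and 23 above it in both, 12 were below 0 in brown fat only and 27 in quadriceps only. The smallest unadjusted p was then that of the low-count Rps27, at 0.062 for a difference of 0.30 ± 0.16 computed from the authors' deposited DESeq2 tables, and 0 of the 79 genes had one under 0.05, against 3.08% of all genes.

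The Wald statistics, each the log2 fold change divided by its SE, were spread less widely for these genes than for all genes. Their SD was 0.377 in brown fat, against 0.796 for all genes and 0.838 for genes whose mean reached 500. In quadriceps the SD was 0.572, against 0.809 for all genes and 0.798 for those with a mean of at least 500. A Wald statistic beyond 1 in either direction was reached by 2.53% of the 79 genes in brown fat, against 17.6% of all genes, and by 7.59% in quadriceps, against 19.6%. In brown fat the genes beyond 1 were the low-count Rps27 and Rpl34, and of the 75 with a mean of at least 50 there were 0. The median SE was 0.104 in brown fat and 0.108 in quadriceps, against 0.102 in brown fat and 0.114 in quadriceps for all genes with a mean of at least 500, so the errors were of like size. The median size of the fold change was 0.0239 in brown fat, against 0.0399 for all genes, and 0.0470 in quadriceps, against 0.0458. With means under 500 left out on both sides, it was 0.0231 for the members and 0.0476 for all genes in brown fat. In quadriceps it was then 0.0474 for the members and 0.0552 for all genes, so the members had the smaller median there too. Several related lists also had a narrower spread than all genes, and others did not. The SD was 0.483 in brown fat and 0.593 in quadriceps for the mitochondrial ribosomal proteins, 0.591 in brown fat and 0.460 in quadriceps for the initiation factors, and 0.486 in brown fat and 0.708 in quadriceps for the elongation and termination factors. None of these was as narrow in brown fat as the 79 genes. The markers of muscle fibres, at 0.122, and of brown adipocytes, at 0.284, were narrower there. For the 8 ribosomal protein genes outside the name rule the SD was 0.771 in brown fat and 0.528 in quadriceps. In quadriceps the SD was wider than for all genes for other TOP mRNAs, at 0.916, and for mTORC1 pathway genes, at 0.942. In brown fat it was 0.660 and 0.794 for these lists. For genes of the p53 response it was wider in both tissues, at 1.05 in brown fat and 1.03 in quadriceps. A narrower spread than all genes is thus not particular to the ribosomal protein genes, and it was not tested, since genes are not replicates.

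**Figure D5:**
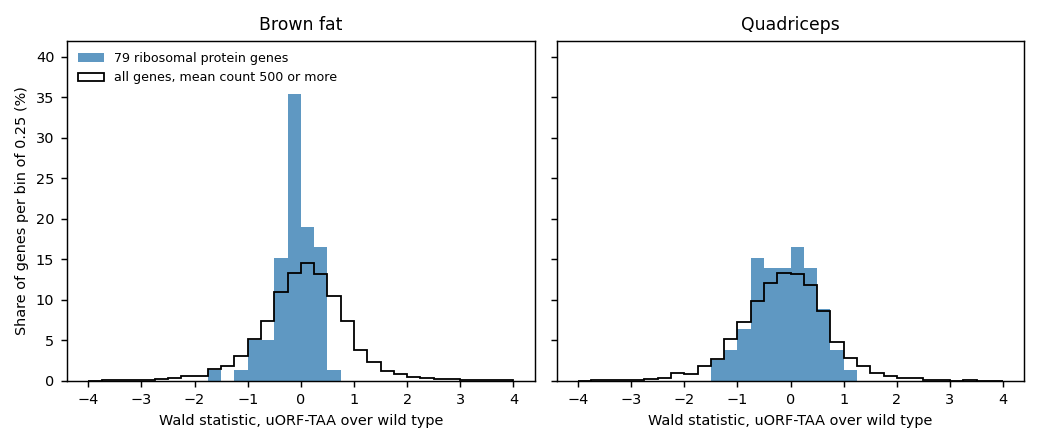
Distribution of the Wald statistic of the genotype difference, uORF-TAA over wild type, in brown fat (left) and quadriceps (right), as the share of genes per bin of 0.25 (%), for the 79 ribosomal protein genes (filled) and all genes with a mean of at least 500 (outline). The filled bars are narrower than the outline, with an SD of 0.377 in brown fat and 0.572 in quadriceps.

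The genes around the ribosome gave few values below an unadjusted p of 0.05, and 0 passed the adjusted test. In ribosome biogenesis (45 measured), initiation (36), elongation and termination (14), RNA polymerase I (19) and the ribosomal protein genes outside the name rule (8), the DESeq2 test of the authors' deposited table gave 0 genes under an unadjusted p of 0.05 in either tissue. Of 28 mTORC1 pathway genes, the authors' deposited DESeq2 table gave Sesn1, a sestrin that restrains mTORC1, -0.38 ± 0.13 in brown fat (log2 fold change with SE, adjusted p = 0.665). The same DESeq2 test of the authors' deposited table gave Ddit4, another inhibitor, -0.34 ± 0.13 in quadriceps (adjusted p = 1.00). Rragb, a Rag GTPase of that pathway, had 0.25 ± 0.13 in quadriceps in the authors' deposited table. Among 12 genes of the p53 response, which ribosome stress can set off, Cdkn1a had -0.28 ± 0.13 in quadriceps (unadjusted p = 0.0344, adjusted p = 1.00) by the DESeq2 test of the authors' deposited table, and Sesn1 is also one of them. Among 11 transcription factors linked to ribosomal protein promoters, the DESeq2 test of the authors' deposited table gave 0 under an unadjusted p of 0.05. Of 22 other TOP mRNAs, 15 were below 0 in brown fat, against 48.8% of all genes, and 18 in quadriceps, against 48.3%, and Hnrnpa1 had -0.40 ± 0.09 in quadriceps (adjusted p = 0.133) in the authors' deposited DESeq2 table. The mitochondrial ribosomal proteins had a median fold change of 0.03 in brown fat (61 of 77 above 0, against 51.2% of all genes) and 0.01 in quadriceps (43 of 77 above 0, against 51.7%), with 0 under an unadjusted p of 0.05 by the DESeq2 test of the authors' deposited table.

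The depth and the make-up of the samples bound these statements. Estimated depth per library was 11.0 to 17.8 M counts (median 11.7 M) in brown fat and 11.4 to 31.8 M (median 22.0 M) in quadriceps. Marker genes of muscle fibres, brown adipocytes, endothelium, mural cells, nerve glia, leukocytes, lymphocytes, fibroblasts and red blood cells gave 0 genes past the adjusted test in either tissue. At an unadjusted p under 0.05 were 3 of 5 mural cell markers and 1 of 5 glial markers in quadriceps, against 2.0% of all genes, each with a negative fold change. In brown fat 1 of 5 glial markers with a negative fold change and the red blood cell marker Alas2, at 0.34 ± 0.13 in the authors' deposited table, had such a p, against 2.07% of all genes.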

How the data were processed

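The libraries were stranded, made from mRNA and read single-end. STAR 2.5.1b, DESeq2 1.10.1 and the mouse build mm9 appear in the submitters' processing notes. How reads were counted, and on which annotation, is not given in the sources used here. Per the file headers, each tissue's deposited table gives for every gene a mean normalized count over its libraries, treated as a signal, a log2 fold change with its standard error on the log2 scale, a Wald statistic (a score), a p-value and an adjusted p-value, all made by the authors. The brown fat sign was turned, so that both tables read uORF-TAA over wild type.

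The test was the deposited one, with an adjusted p under 0.05 over all genes. Differences between tissues were divided by their joint standard error, the square root of the 2 squared errors added (two-sided normal p), which treats the tissues as independent. This procedure was tested on simulated data. Replicates are separate libraries; the labels do not number the animals behind them, so p-values measure the spread between these samples. Transcript lengths and shared 75-base stretches came from the shortest principal transcript of GENCODE M21, whose build and genes differ from mm9; lengths were found for all 79 genes and 99% of all genes. Depth came from size factors, read from genes with 1 read over all libraries together. Computations used Python 3.11.15 with pandas 2.3.3, numpy 2.4.6 and scipy 1.17.1.

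The members and lists were chosen with earlier results of these data known. Genes were named by a rule: per tissue the smallest p in each subunit and the 5 highest and lowest length-scaled levels, the 5 largest level differences on each side, the 4 smallest p between tissues, copies ending in l or x with their partners, the stalk genes, Rpsa, and up to 3 genes per list. Of the numerous marker genes only Ucp1, Myh4, Mb, Ttn and Alas2 are named, and these, like Rpl6, Rpl11 and Rps27rt, were picked after their values were seen. Alternatives varied the threshold, the adjustment, low-count filters, scaling, length and sign.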

Additional observations from a re-analysis of the deposited data

How the results depend on the processing

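The counts of called genes stayed at 0 under every threshold and adjustment run, in both tissues and between them. With the genotype named second as numerator, the median log2 fold change of the 79 genes turned to 0.0095 in brown fat and 0.0095 in quadriceps. The median level difference, 1.34 as reported, was 0.43 when scaled by the median ratio of genes and 0.91 with the 20 highest genes left out of the totals; without the 20 highest other genes, the 79 genes held 1.63% of counts in brown fat and 0.925% in quadriceps. The following alternatives, like the turned sign counts between tissues, were chosen after seeing the data. Scaling by coding length instead of transcript length kept much of the order of the levels (Spearman 0.847 in brown fat and 0.857 in quadriceps), and scaling by unshared 75-base stretches less of it (0.670 in brown fat and 0.613 in quadriceps). With unshared stretches the share of Rpl3l in its pair was 2.21% in brown fat and 62.6% in quadriceps, and that of Rps27l turned to 37.5% in brown fat and 49.1% in quadriceps. The cause of these shifts was not tested beyond the change of divisor. A coding length from a protein table was not run. No paired analysis was possible because the tables hold no values per library, and for the same reason no replicate could be left out in turn. Depth limits the 5 genes with a mean below 50. Their small deposited errors are like those of shrunken estimates, and the fold changes of the other genes may be shrunken too. Across the 79 genes the deposited SE ran from 0.044 to 0.126 in brown fat and from 0.040 to 0.135 in quadriceps. The lowest SE in each tissue was that of Rpl30. Whether the deposited estimates are shrunken was not tested.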
